A study of Mus musculus with 3 samples.

Results

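Genes of chloride cotransporter and chloride channel families were examined in embryonic mouse sensory ganglia, 9 of 41388 genes listed in the deposited tables, chosen by name. They are 4 cation-chloride cotransporter genes (Slc12a2, Slc12a4, Slc12a5 and Slc12a7), 2 anoctamin genes (Ano1 and Ano3) and 3 genes of the CLC family (Clcn2, Clcn3 and Clcn6). RNA came from dorsal root ganglia of spinal levels T11 to S1 at 14.5 days post coitum, from C57BL/6 embryos carrying a Ret-EGFP reporter, and cells were sorted for fluorescence before extraction. Ret encodes the receptor tyrosine kinase of the GDNF ligand family, so the gate favours the sensory neurons that transcribe it. The 3 libraries, A, B and D, form 1 group with no control population: A pooled 100 ganglia of 5 embryos, B 100 ganglia of 6 embryos and D 80 ganglia of 4 embryos, each with both sexes. The genotype label writes the reporter as a transgene, whereas the series text describes heterozygotes with EGFP in the Ret locus, so the state of the Ret alleles is not settled.

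The direction in which GABA moves chloride in a neuron depends on transporters that load or unload it. NKCC1, encoded by Slc12a2, carries chloride in together with sodium and potassium, and the KCC proteins (among them KCC1 from Slc12a4, KCC2 from Slc12a5 and KCC4 from Slc12a7) carry it out with potassium. Central neurons gain KCC2 as they mature, while sensory neurons are known for keeping chloride high enough that GABA depolarises them. Anoctamins include calcium-activated chloride channels and lipid scramblases, and the CLC family includes plasma membrane channels and chloride-proton exchangers of endosomes and lysosomes.

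Promoter windows of 8 of the 9 genes, 12 windows in all, were taken from RefSeq (GRCm38.p6), and none was used for Slc12a2. Of these, 4 windows of 4 genes held CACGTG, a hexamer known as an E-box and read the same on both strands. Across 32817 windows of the same 250 bases before a start site, 6.02% held it. A second motif, TGACGTCA, the full cAMP response element and also the same on both strands, was in 0 of the 12 windows and in 1.55% of all windows. Both motifs, the only ones searched, were picked after the sequences had been read. A match is a description only, and no match says nothing about a factor. The 4 windows below are shown because they set Slc12a5, the scarcest cotransporter gene of the 9, beside a relative and a CLC gene that were well expressed. Capitals mark CACGTG, each run is written 5′ to 3′ on the gene's strand and ends just before the start site. The positions are chr2:164960596-164960845 and chr2:164967738-164967987 (plus strand) for Slc12a5, chr13:73763447-73763696 (plus strand) for Slc12a7 and chr4:148038814-148039063 (minus strand) for Clcn6.
Slc12a5, upstream start: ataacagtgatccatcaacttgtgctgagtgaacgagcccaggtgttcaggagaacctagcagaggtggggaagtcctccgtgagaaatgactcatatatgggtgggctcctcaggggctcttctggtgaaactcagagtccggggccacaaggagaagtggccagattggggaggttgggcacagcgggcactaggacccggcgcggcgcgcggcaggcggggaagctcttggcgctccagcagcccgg
Slc12a5, downstream start: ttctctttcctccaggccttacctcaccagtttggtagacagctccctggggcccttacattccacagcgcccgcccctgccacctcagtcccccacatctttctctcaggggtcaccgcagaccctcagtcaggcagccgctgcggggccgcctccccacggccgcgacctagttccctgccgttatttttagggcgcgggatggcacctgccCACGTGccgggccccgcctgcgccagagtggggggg
Slc12a7: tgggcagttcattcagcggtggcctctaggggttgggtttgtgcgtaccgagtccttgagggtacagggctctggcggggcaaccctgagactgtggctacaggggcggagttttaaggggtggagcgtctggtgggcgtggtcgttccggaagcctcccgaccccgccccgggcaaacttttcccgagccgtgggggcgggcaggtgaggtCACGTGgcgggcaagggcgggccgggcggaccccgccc
Clcn6: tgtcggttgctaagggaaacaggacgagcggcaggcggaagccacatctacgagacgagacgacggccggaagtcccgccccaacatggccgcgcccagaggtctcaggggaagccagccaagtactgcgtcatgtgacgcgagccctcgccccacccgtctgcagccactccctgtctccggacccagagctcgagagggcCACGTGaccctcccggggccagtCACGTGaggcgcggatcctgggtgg

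Slc12a7 has a second, largely overlapping window that ends before the hexamer is complete. The downstream Slc12a5 window, the Slc12a7 window and the Clcn6 window thus share the hexamer, with 2 copies in Clcn6. Of the windows shown, those of Slc12a5 held 13 and 16 CpG dinucleotides, that of Slc12a7 held 21 and that of Clcn6 held 24. The median over all windows was 6. Ano3 was the fourth gene with a match, and its window with the hexamer held 7 CpG dinucleotides, near that median. Slc12a5 was near the detection limit and Clcn6 among the highest of the 9, and a window of each held the hexamer.

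The labelled tissue was checked on marker lists. All 8 sensory neuron markers reached 1 TPM in every library, from Elavl4 at 414 ± 66.7 TPM to Tubb3 at 14755 ± 2579 TPM (mean ± SD, n = 3 libraries, as for every ± below). TPM, a transcript level on a fixed total per library, scales a count by gene length and by the library. Glial markers summed to 561, 886 and 949 TPM (A, B, D), with S100b highest (343 ± 92.5 TPM) and Foxd3 lowest (0.311 ± 0.187 TPM). Mesenchyme markers summed to between 17.4 and 67.7 TPM, highest in B. By mean TPM, Col1a1 was at the top (11.5 ± 14.7 TPM) and Twist1, which had no count in A, at the bottom. The Col1a1 mean was carried by B (3.68, 28.4 and 2.32 TPM in A, B and D). Erythroid markers summed to between 75.0 and 305 TPM, highest in D, with Hbb-bs highest. Endothelial markers (Pecam1 highest, Kdr lowest) summed to at most 4.43 TPM and macrophage markers (C1qb highest, Cx3cr1 lowest) to at most 17.2 TPM. Of the spinal cord markers, Slc5a7 stood at 6.13 ± 2.73 TPM, and Mnx1, Olig2 and Lbx1 had no count. Ret stood at 59.8 ± 10.7 TPM. The libraries held 20181558, 20355302 and 29061086 counts (A, B, D).

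Among the chloride importers and exporters, the loader Slc12a2 was present in every library and the neuronal exporter Slc12a5 was close to absent. Slc12a2 (ENSMUSG00000024597, chromosome 18, 57878678 to 57946821, GRCm38.p2, 27 exon blocks) had 367, 461 and 685 counts (A, B, D). This equals 7.42, 8.88 and 8.12 TPM, a mean of 8.14 ± 0.727 TPM. In TPM it was the steadiest of the 9 genes, with a coefficient of variation of 8.94%. That place depends on the scale. After TMM scaling, log2 CPM ran from 4.18 to 4.64 for Slc12a2. The range was narrower for Clcn3 (7.49 to 7.91) and slightly narrower for Clcn2 (2.65 to 3.10). Slc12a5 (ENSMUSG00000017740, chromosome 2, 164960816 to 164999727) had 3, 9 and 8 counts in the same order. Its levels were 0.0551 TPM in A (exact 95% Poisson interval 0.0114 to 0.161), 0.157 in B (0.0720 to 0.299) and 0.0861 in D (0.0372 to 0.170). The 3 intervals overlap, and the libraries were not compared by a test, because Slc12a5 did not pass the count filter. A gene without a symbol (ENSMUSG00000087503), with no count, shares 188 bases of the Slc12a5 exons on the same strand, 2.62% of the length. No molecular identifiers are described, so these intervals cover counting error only.

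In every library Slc12a2 stood far above Slc12a5. The TPM ratio was 135 in A (95% interval 45.7 to 656), 56.4 in B (29.4 to 124) and 94.3 in D (47.6 to 219), from exact Clopper-Pearson intervals on the counts. The mean log2 ratio was 6.48 ± 0.63, or 89.4-fold, and the ratio was above 1 in 3 of 3 libraries. No p-value is given for this pair, because Slc12a5 missed the minimum of 10 counts per library set for a test. Even the lowest interval bound of the 3 libraries left Slc12a2 29.4-fold higher. A bulk library cannot tell few cells with much Slc12a5 RNA from many cells with little. NKCC1 is also made by glia, and the glial sums of 561, 886 and 949 TPM stood beside Slc12a2 levels of 7.42, 8.88 and 8.12 TPM. The part of glial RNA in the Slc12a2 level was not tested.

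**Figure D1:**
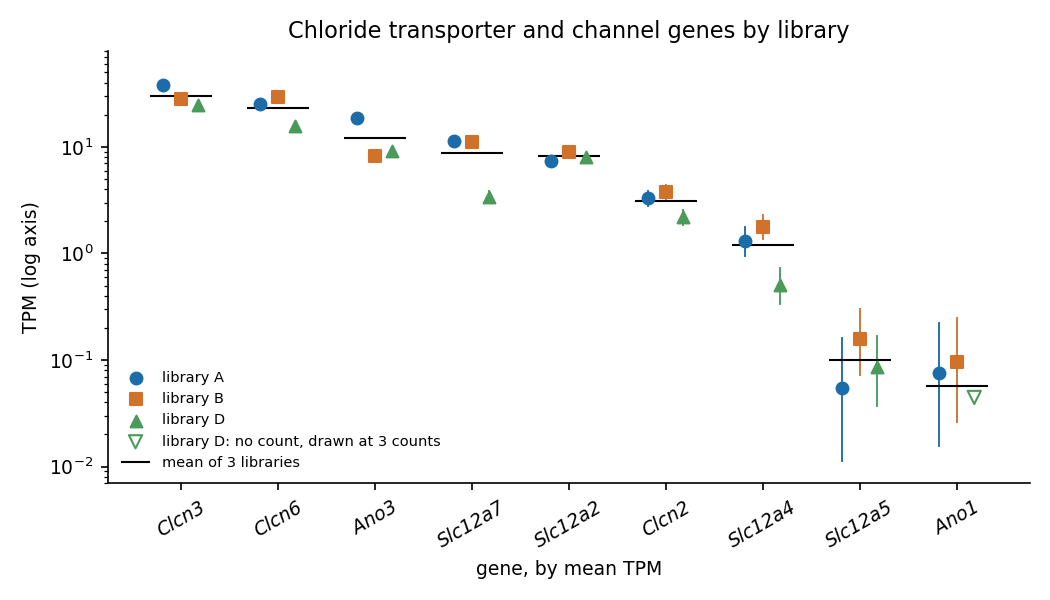
TPM (log axis) of the 9 genes in libraries A, B and D, ordered by mean TPM; points are libraries, vertical lines exact 95% Poisson intervals, and black bars means of 3 libraries. Slc12a5 and Ano1 lie at or below 0.157 TPM in every library, and the open triangle places Ano1 in D, where it had no count, at the 3 counts that a count of 0 allows.

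The exporter genes Slc12a7 and Slc12a4 stood above Slc12a5 in every library. Slc12a7 (KCC4, ENSMUSG00000017756, chromosome 13, 73763697 to 73816743) reached 446, 457 and 227 counts (A, B, D), or 11.5, 11.2 and 3.42 TPM. A and B were alike and D was lower, and the mean was 8.69 ± 4.57 TPM. Slc12a4 (KCC1, the exporter found in most tissues, ENSMUSG00000017765, chromosome 8, 105943590 to 105966115) had 43, 61 and 28 counts, or 1.32, 1.78 and 0.504 TPM, again lowest in D. Its exons share 361 bases, 8.40% of its length, with the antisense gene Gm16156, which had at most 3 counts in a library.

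Pairs of the 9 genes were compared within libraries. Of 10 pairs listed, 6 had at least 10 counts of both genes everywhere and got a sign-flip permutation test (exact, two-sided). With 3 libraries its p cannot go below 0.25, so none could pass 0.05. The difference between Slc12a2 and Slc12a7 was smaller than its spread over the libraries (mean log2 ratio 0.10 ± 1.01, above 1 in 1 of 3 libraries, exact p = 1). The ratios were 0.648, 0.794 and 2.37 (A, B, D), and without D the mean log2 ratio was -0.48. Slc12a2 exceeded Slc12a4 7.67-fold (log2 2.94 ± 0.93, 3 of 3 libraries, exact p = 0.25, Benjamini-Hochberg adjusted over the 6 pairs 0.375). Slc12a7 exceeded Slc12a4 7.18-fold (log2 2.84 ± 0.24, 3 of 3, exact p = 0.25, adjusted 0.375), and both genes were lowest in D. Untested for low counts, Slc12a5 lay 208-fold below Slc12a7 in A (95% interval 70.7 to 1012), 71.0-fold in B (37.1 to 156) and 39.7-fold in D (19.8 to 93.1). Against Slc12a4, Slc12a5 lay 23.9-fold lower in A (7.66 to 121), 11.3-fold in B (5.59 to 25.9) and 5.85-fold in D (2.60 to 14.8).

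**Figure D2:**
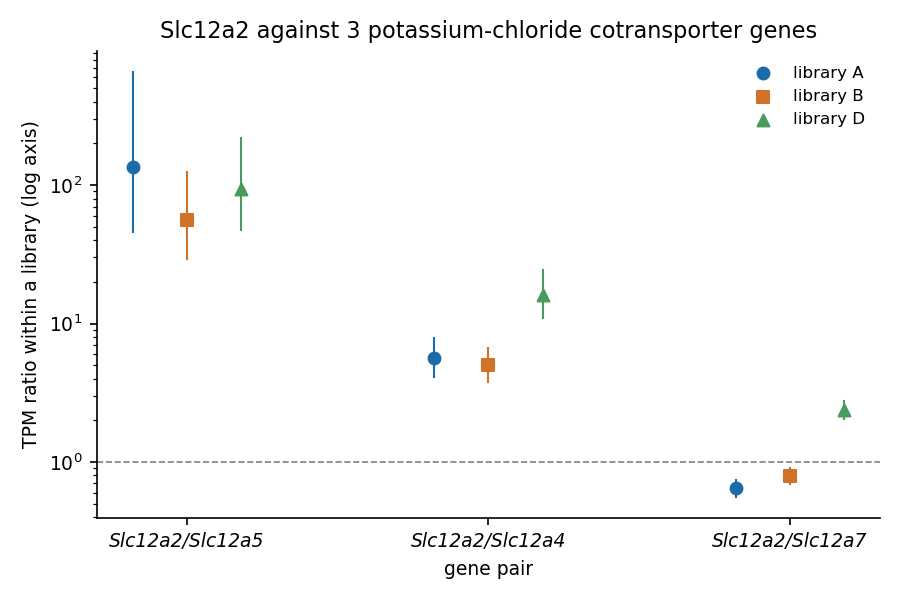
TPM ratio of Slc12a2 to Slc12a5, Slc12a4 and Slc12a7 within each library (log axis); points are libraries, vertical lines exact 95% intervals from the counts, and the dashed line marks equal levels. The ratio to Slc12a5 lies between 56.4 and 135, while the ratio to Slc12a7 falls on both sides of 1.

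No other cotransporter gene had a higher mean TPM than Slc12a7 and Slc12a2. Of the family's 9 genes, 4 reached 1 TPM in every library, against 30% of all listed genes. That 30% is also the share to set beside the same counts for the lists below. After Slc12a7 and Slc12a2 came Slc12a9, a relative with no settled ion cargo, at 6.11 ± 2.24 TPM. Slc12a8 stayed at 0.380 ± 0.122 TPM. The list's median over all 9 genes was 1.20 ± 0.648 TPM, against medians of 0.0809, 0 and 0.0725 TPM (A, B, D) over all 41388 genes. Many of those genes had few or no counts. Over the 13530 genes that passed the count filter, the median was 11.1 ± 1.98 TPM, above that of the list. Of the list's 9 genes, 5 passed that filter.

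The 2 anoctamin genes differed widely: by mean TPM Ano3 followed Clcn3 and Clcn6, and Ano1 was the lowest of the 9. Ano1 encodes TMEM16A, a calcium-activated chloride channel studied in heat-sensing nociceptors. Ano1 (ENSMUSG00000031075, chromosome 7, 144588549 to 144751974) had 3, 4 and 0 counts (A, B, D), and in D a count of 0 allows up to 0.0445 TPM at a floor of 3 counts (upper bound of the two-sided 95% Poisson interval 0.0548). In A it stood at 0.0760 TPM (95% interval 0.0157 to 0.222) and in B at 0.0965 TPM (0.0263 to 0.247). Ano3, whose product modulates a sodium-activated potassium channel in nociceptors, is on chromosome 2 (ENSMUSG00000074968, 110655201 to 110950923). It had 1021, 475 and 855 counts, or 18.7, 8.26 and 9.15 TPM, highest in A and about equal in B and D. Its exons share 61 bases, 0.845% of its length, with Muc15 on the opposite strand, which had at most 27 counts in a library.

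Ano3 exceeded Ano1 245-fold in A (95% interval 83.8 to 1192), 85.6-fold in B (33.2 to 316) and at least 206-fold in D, counted against a floor of 3 counts in that library (lower bound of the two-sided 95% interval 167). The order was the same in 3 of 3 libraries, and no test was made because of the low Ano1 counts. Other anoctamins were higher still: Ano10 averaged 99.6 ± 27.2 TPM, Ano6, a calcium-activated scramblase gene, 30.3 ± 14.8 TPM, and Ano4 18.3 ± 7.92 TPM. Only these 3 and Ano3 reached 1 TPM in every library, 4 of 10 genes in the family. Of the 10, Ano9 alone had a lower mean TPM than Ano1.

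The CLC genes Clcn3 and Clcn6 were the most abundant of the 9 by mean TPM, and Clcn2 was lower. Clcn3 encodes an endosomal chloride-proton exchanger that is also found on synaptic vesicles. Clcn3 (ENSMUSG00000004319, chromosome 8, 60910389 to 60983300) had 4905, 3835 and 5462 counts in A, B and D, or 37.9, 28.2 and 24.7 TPM. Clcn6, a late endosomal exchanger gene known for its expression in neurons, is on chromosome 4 (ENSMUSG00000029016, 148004259 to 148038821). It had 1130, 1383 and 1196 counts, or 25.1, 29.3 and 15.6 TPM, lowest in D. Clcn2 encodes a plasma membrane channel that opens on hyperpolarisation. Clcn2 (ENSMUSG00000022843, chromosome 16, 20702964 to 20717746) had 151, 181 and 170 counts, or 3.31, 3.77 and 2.18 TPM. Its exons overlap the opposite strand genes Fam131a (85 bases) and Polr2h (82 bases), 1.41% and 1.36% of its length. Fam131a had 464, 579 and 407 counts and Polr2h 1101, 1074 and 2274 (A, B, D), more than Clcn2 in every library. The use of strand in counting is not given, and the part of these genes in the Clcn2 counts was not tested.

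The endosomal exchangers stood above the channel. Clcn6 exceeded Clcn2 7.60-fold in A, 7.76-fold in B and 7.14-fold in D (log2 2.91 ± 0.06, 3 of 3 libraries, exact p = 0.25, adjusted 0.375). This ratio had the smallest spread of the 6 tested pairs. Clcn3 exceeded Clcn2 9.90-fold (log2 3.31 ± 0.35, 3 of 3, exact p = 0.25, adjusted 0.375). Clcn3 and Clcn6 were close: the log2 ratios were 0.59, -0.05 and 0.67 (A, B, D), a mean of 0.40 ± 0.40 (exact p = 0.5, adjusted 0.6).

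That near equality rests on gene length. The deposited length of Clcn3 is 17071 bases, while its longest coding transcript in the GENCODE M21 basic set has 5684. With coding transcript lengths, a choice added after seeing the data, Clcn3 exceeded Clcn6 3.48-fold (log2 1.80 ± 0.40, 3 of 3 libraries, exact p = 0.25), and as CPM, with no length correction, 3.80-fold. The deposited length of Clcn2, 6022 bases, also exceeds its longest coding transcript of 3128, and with transcript lengths the fold of Clcn6 over Clcn2 was 4.44 and that of Clcn3 over Clcn2 15.4. For Slc12a2 and Slc12a5 the lengths are 6520 and 7177 bases, against 6520 and 6028 in coding transcripts, and the log2 ratio was 6.23 with the latter.

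Within the CLC family, Clcn4 encodes another chloride-proton exchanger, which pairs with the Clcn3 product. It averaged 165 ± 41.0 TPM, above Clcn3 and Clcn6. The gap to Clcn3 also depends on gene length. As CPM, Clcn4 stood at 357, 289 and 256 and Clcn3 at 243, 188 and 188 (A, B, D). Clcn5 averaged 16.7 ± 3.32 TPM and the lysosomal exchanger gene Clcn7 14.1 ± 6.87 TPM. Of 11 genes, 7 reached 1 TPM in every library, and Bsnd, the barttin subunit of the kidney channels, had no count in any, which allows up to 0.149, 0.147 and 0.103 CPM (A, B, D).

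By mean TPM the 9 genes ordered as Clcn3 (30.3 ± 6.82), Clcn6 (23.3 ± 7.02), Ano3 (12.0 ± 5.76), Slc12a7 (8.69 ± 4.57), Slc12a2 (8.14 ± 0.727), Clcn2 (3.09 ± 0.819), Slc12a4 (1.20 ± 0.648), Slc12a5 (0.0996 ± 0.0525) and Ano1 (0.0575 ± 0.0508). The libraries of neighbours overlapped for the first 5 genes and again for Slc12a5 and Ano1. They did not overlap between Slc12a2 and Clcn2, between Clcn2 and Slc12a4, or between Slc12a4 and Slc12a5, where the fall was steepest at 12.1-fold. Among all 41388 genes Clcn3 ranked 4016, Slc12a2 7882 and Slc12a5 20791. Of the 9 genes, 6 reached 1 TPM in every library, against the 30% of all genes given above.

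Genes whose log2 TPM lay nearest to Slc12a2 over the 3 libraries were Ppp6r2 (Euclidean distance 0.050), Patz1 (0.063) and Sema4g (0.084). As many as 343 of 13695 candidates lay within 0.5, so 3 libraries give little resolution. Nearest to Slc12a5 were Dnah2, Ptprc and Ltbp1, at distances of 1.05 to 1.45, each from at most 24 counts in a library. Candidates needed at least 10 counts in every library, which Slc12a5 itself lacked. Genes with counts as low as its own were thus left out, and nothing is read from these neighbours.

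Variation between libraries was tested over all genes with edgeR's negative binomial fit and a goodness-of-fit test, adjusted by Benjamini-Hochberg. A call means a wider spread between libraries than other genes of similar level have. A gene that is not called may still differ between libraries. The test called 24 of 13530 genes, or 0.177%. Among them were 1 of 6 tested mesenchyme markers, Col1a1 (edgeR adjusted p = 5.8e-05, highest in B). Of 4 tested erythroid markers it called 2, both highest in D: Hbb-bs (edgeR adjusted p = 0.022) and Hbb-bt (0.027). No marker of the other lists was called. Of the 9, 7 passed the count filter (Slc12a5 and Ano1 did not), and 0 were called by edgeR. None had an unadjusted p under 0.05 either, against 6.11% of all tested genes. DESeq2 marked 0 as dispersion outliers, against 4 of all 13530. With shares this low, 0 of 7 genes says nothing particular about them. Slc12a7 came closest, at -1.38 log2 units in D relative to the mean of the others (edgeR adjusted p = 0.84). Slc12a4 lay at -1.20 in D (edgeR adjusted p = 1.00) and Ano3 at 0.92 in A (edgeR adjusted p = 0.97).

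Library D gave the lowest TPM for 5 of the 7 genes that passed the count filter and for 58.9% of all tested genes, so nothing particular to the 9 is read from it. The median TPM of tested genes was 12.3, 12.2 and 8.83 (A, B, D). After TMM scaling the median log2 difference of D from the others was -0.36 over the 7 tested members and -0.0049 over all tested genes. Slc12a2 lay on the other side, at 0.33 in D. The erythroid sum was also highest in D, and its part in these differences was not tested.

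**Figure D3:**
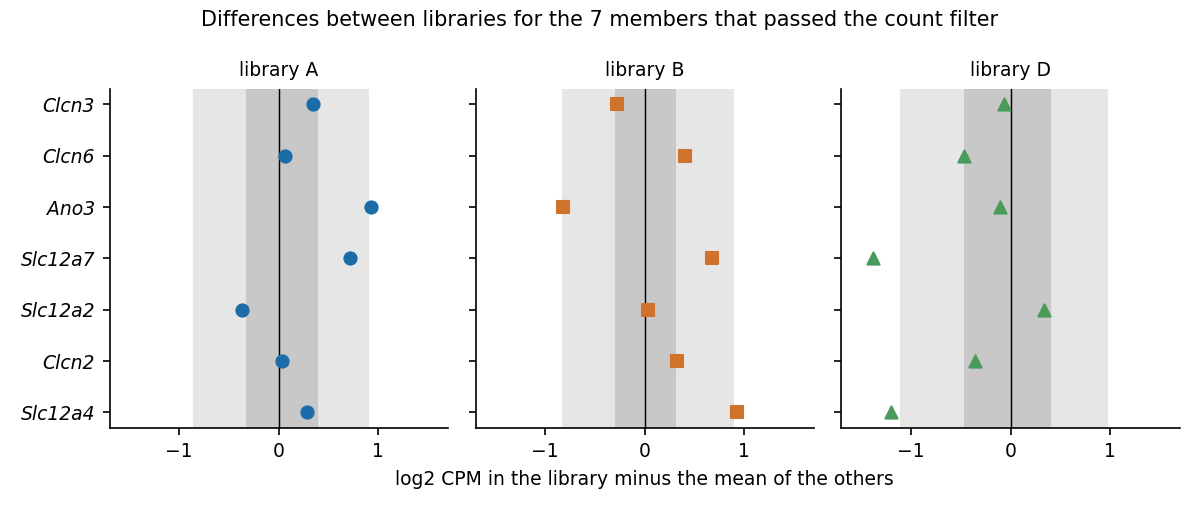
Log2 CPM in each library minus the mean of the other libraries for the 7 genes that passed the count filter; the dark band holds the middle 50% and the light band the middle 90% of all 13530 tested genes. Beyond the light band lie Slc12a7 (-1.38) and Slc12a4 (-1.20) in D and, just outside it, Ano3 in A (0.92) and in B (-0.82) and Slc12a4 in B (0.92); the other 4 genes stay within it in every library.

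Regulators of the cotransporters were present. WNK kinases sense chloride and act through SPAK (Stk39) and OSR1 (Oxsr1), which activate NKCC1 and restrain KCC proteins. Of 8 genes in this list, 7 reached 1 TPM in every library. The scaffold gene Cab39l averaged 44.9 ± 12.6 TPM, Stk39 30.3 ± 11.0 TPM and Cab39 17.8 ± 1.27 TPM. Stk39 was at 24.5 TPM in A and 23.5 in B against 43.0 in D (edgeR adjusted p = 0.81).

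Further anion channel and exchanger genes were expressed beside the 9. Among other anion channels, 9 of 13 genes reached 1 TPM in every library, led by Lrrc8a, the essential subunit of volume-regulated anion channels (142 ± 38.3 TPM), Tmem206, an acid-activated channel gene (45.8 ± 7.99 TPM), and Ttyh2 (28.4 ± 11.5 TPM). Best2 had no count. Chloride-bicarbonate exchangers were lower, with 3 of 5 genes reaching 1 TPM: Slc4a2 at 3.63 ± 1.43 TPM, Slc4a8 at 2.98 ± 0.898 TPM and Slc4a3 at 1.83 ± 0.776 TPM.

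The sodium-potassium ATPase, whose gradients drive the cotransporters, had all 6 genes above 1 TPM in every library, with Atp1b1 at 167 ± 11.0 TPM and Atp1b3 at 58.3 ± 29.7 TPM. GABA-A and glycine receptors, the ligand-gated channels whose current direction chloride sets, had 10 of 18 genes at 1 TPM, among them Gabra2 (55.0 ± 20.2 TPM), with no count of Gabra6 or Glra4. Over all 8 lists, which include the 9 members, 50 of 80 genes reached 1 TPM in every library, against 30% of all listed genes. Of these lists 59 genes were tested for variation and edgeR called 0, against 0.177% of all tested genes. DESeq2 marked 0 of the 59, against 4 of all 13530, so nothing particular to the lists is read from these calls. An unadjusted edgeR p under 0.05 was found for 4 (6.78%), a share near the 6.11% of all tested genes. These 4, named after their values were seen, were Stk39, Ostm1, which encodes the partner of the Clcn7 product, Slc4a10 and Atp1b2. The lowest edgeR adjusted p among them was that of Atp1b2, 0.27, at 2.58, 7.78 and 1.21 TPM (A, B, D).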

How the data were processed

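RNA of 3 pooled libraries was sequenced after SMARTer amplification of 10 ng total RNA and 12 PCR cycles, per the labels' protocols. The deposited counts are whole numbers for each Ensembl gene, made with Subread and featureCounts 1.4.5 on GRCm38.p2 per the submitters' processing notes, with gene lengths. The settings for strand and multiple matches were not given in the sources used here. The deposited CPM equalled counts over the library total, and the deposited RPKM equalled CPM per kilobase (largest differences 4.7e-11 and 2.7e-11). Symbols came from GENCODE M21 for 40254 genes, and 1134 had none. The label of D reads TS11 where the others read T11. The libraries were not copies: counts of A and B, the closest pair, differed by 49.9 times counting variance.

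TPM was computed here from counts and lengths. Variation between libraries used edgeR 4.0.16 under R 4.3.3 (TMM, filterByExpr, trended dispersion, intercept-only fit, chi-square goodness of fit with 2 degrees of freedom), after a check on simulated data; the quasi-likelihood test needs 2 groups. DESeq2 1.42.0 was an alternative. Python 3.11.15, scipy 1.17.1 and matplotlib 3.10.9 did the rest. The members, 8 gene lists and 7 marker lists were chosen with earlier results of these data known. Named genes were the 9 members, the 3 highest others of each list, genes with no count, the highest and lowest markers, and the 3 nearest in pattern; some genes that this rule names are not reported here. Alternatives were other scales, totals, filters, thresholds, dispersions and leaving out each library. Each label names a separate pool of embryos, made into its own library. The sign-flip p-values rest on the spread between pools, which includes that of library preparation. The edgeR p-values compare the spread of a gene with that of other genes of similar level in the same libraries.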

Additional observations from a re-analysis of the deposited data

How the results depend on the processing

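Leaving out each library in turn moved the mean log2 ratio of Slc12a2 to Slc12a5 between 6.19 and 6.82, and it was 6.34 as CPM and 6.36 with 0.5 counts added to both genes. The direction of 1 pair changed: Slc12a2 to Slc12a7 had a mean log2 ratio of 0.10 in the 3 libraries, and between -0.48 (without D) and 0.46 (without A) when a library was left out. The other 5 tested pairs kept their direction under every alternative tried.

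As CPM, with no length correction, the median over the 9 genes, averaged over libraries, was 16.1 in place of 6.37 as TPM. The list medians as CPM were 2.03 for cation-chloride cotransporters, 29.4 for the CLC list, 2.04 for anoctamins, 12.2 for other anion channels, 31.3 for the WNK list, 6.20 for chloride-bicarbonate exchangers and 3.01 for GABA-A and glycine receptors. CPM and TPM are different units, so these values show the effect of length alone. With a threshold of 5 TPM, 32 of the 80 list genes passed in every library, among them 1 cotransporter gene, 0 chloride-bicarbonate exchanger genes and 6 receptor genes. The share of all listed genes at 5 TPM was not computed.

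The number of genes called for variation between libraries was 55 with the length trend removed and 4 as DESeq2 dispersion outliers. It was between 2 (without B) and 27 (without D) when a library was left out, 7 without A. None of the 9 genes was called under any of these alternatives. Slc12a7 had an unadjusted p under 0.05 with library totals alone, without A and without B, and Ano3 without D, 4 results in all, with adjusted p from 0.66 to 0.98. No paired analysis was possible because the libraries form 1 group. Depth limits Slc12a5 and Ano1, whose levels rest on at most 9 counts in a library.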
